A study of Mus musculus with 3 samples.

Results

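Open chromatin was described at 10 genes of the cortical interneuron lineage (Dlx1, Dlx2, Dlx5, Dlx6, Lhx6, Gad1, Gad2, Prox1, Adarb2 and Npy) in sorted mouse projection neurons, which do not belong to that lineage. The genes were chosen by name, out of 21887 protein-coding genes, and every peak within a gene body or 20 kb of it was taken. FACS-sorted brain cells, 50000 for each sort, had been profiled by ATAC-seq, an assay that marks accessible DNA with a transposase. Corticospinal motor neurons (CSMN), which project to the spinal cord, gave 1 library (CSMN 1), and callosal projection neurons (CPN), which connect the hemispheres, gave 2 libraries (CPN 1 and CPN 2). Neither group carried an allele or a treatment in the labels, and no age, strain or number of mice and no sorting marker was given in the sources used here. Peaks of the 3 libraries that overlapped by at least 1 bp were merged, which gave 125 regions at the interneuron genes of 145402 regions at all protein-coding genes and 204313 in all. CSMN had 1 library, so the spread between CPN 1 and CPN 2 was the only replicate error, and no test between the cell types was made.

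Cortical interneurons arise in the ventral forebrain and use GABA, whereas CSMN and CPN arise from dorsal progenitors and use glutamate. Dlx1, Dlx2, Dlx5 and Dlx6 are homeobox transcription factors of the ventral forebrain, arranged as neighbouring pairs with regulatory DNA between the genes of each pair. Lhx6 is the LIM homeobox factor of interneurons from the medial ganglionic eminence, while Prox1 and Adarb2 mark interneurons from the caudal ganglionic eminence. Gad1 and Gad2 encode the enzymes that make GABA, and Npy encodes neuropeptide Y, a peptide of interneuron subsets. An open gene start does not require that the gene is transcribed, and the peak lists hold no measure of RNA.

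Promoter sequences of 8 of the 10 genes were in the RefSeq table used, each running from 250 bases before to 50 bases after an annotated start in GRCm38.p6, the build also called mm10. Those of 6 genes are shown because they span the range from the highest to the lowest folds at a gene start described below. All are written 5′ to 3′ on the strand of the gene, and capitals mark CpG dinucleotides, which are dense in CpG island promoters.
Adarb2, chr13:8202616-8202915, plus strand: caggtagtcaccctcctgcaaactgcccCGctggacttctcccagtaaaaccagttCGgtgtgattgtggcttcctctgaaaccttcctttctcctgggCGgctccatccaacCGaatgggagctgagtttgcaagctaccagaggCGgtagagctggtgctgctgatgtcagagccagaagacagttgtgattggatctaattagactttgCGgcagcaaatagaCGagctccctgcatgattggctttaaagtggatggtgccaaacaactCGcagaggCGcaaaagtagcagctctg
Prox1, chr1:190170778-190171077, minus strand: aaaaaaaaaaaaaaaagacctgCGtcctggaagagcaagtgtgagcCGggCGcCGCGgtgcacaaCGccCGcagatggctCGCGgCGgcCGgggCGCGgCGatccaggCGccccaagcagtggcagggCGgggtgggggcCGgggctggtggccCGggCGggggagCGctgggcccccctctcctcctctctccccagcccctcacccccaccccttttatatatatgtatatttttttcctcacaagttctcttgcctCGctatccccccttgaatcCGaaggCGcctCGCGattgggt
Dlx2, chr2:71546705-71547004, minus strand: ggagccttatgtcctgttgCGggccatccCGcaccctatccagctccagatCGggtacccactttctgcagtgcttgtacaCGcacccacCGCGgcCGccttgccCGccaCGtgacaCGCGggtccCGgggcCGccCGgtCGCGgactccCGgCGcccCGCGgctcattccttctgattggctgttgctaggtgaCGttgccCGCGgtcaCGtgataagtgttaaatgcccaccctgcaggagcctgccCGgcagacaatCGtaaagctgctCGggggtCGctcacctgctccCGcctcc
Gad2, chr2:22622077-22622376, plus strand: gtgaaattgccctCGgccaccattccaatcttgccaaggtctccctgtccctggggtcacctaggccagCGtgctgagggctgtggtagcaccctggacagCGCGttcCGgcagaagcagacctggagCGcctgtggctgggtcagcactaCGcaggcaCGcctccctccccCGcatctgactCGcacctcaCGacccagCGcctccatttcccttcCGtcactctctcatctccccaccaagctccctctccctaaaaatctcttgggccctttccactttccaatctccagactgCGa
Gad1, chr2:70561879-70562178, plus strand: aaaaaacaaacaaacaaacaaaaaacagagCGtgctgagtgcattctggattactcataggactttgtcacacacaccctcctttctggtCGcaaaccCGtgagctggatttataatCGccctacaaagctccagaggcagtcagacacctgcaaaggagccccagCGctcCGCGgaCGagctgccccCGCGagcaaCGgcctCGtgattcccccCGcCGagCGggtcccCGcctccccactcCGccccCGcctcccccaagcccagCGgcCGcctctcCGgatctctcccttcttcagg
Lhx6, chr2:36105359-36105658, minus strand: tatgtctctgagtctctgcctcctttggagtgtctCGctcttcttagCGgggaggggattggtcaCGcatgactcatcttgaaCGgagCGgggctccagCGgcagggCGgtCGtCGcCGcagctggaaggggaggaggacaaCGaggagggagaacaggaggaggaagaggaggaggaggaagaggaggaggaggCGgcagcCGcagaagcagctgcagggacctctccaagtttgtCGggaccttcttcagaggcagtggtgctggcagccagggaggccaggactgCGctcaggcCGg

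The Adarb2 window held 9 CpG, with a ratio of observed to expected CpG of 0.433, the lowest of the 11 member windows. The upstream Prox1 window had 25 CpG (ratio 0.807), Dlx2 had 29 (0.898), Gad2 had 14 (0.543), Gad1 had 21 (0.849) and the outer Lhx6 window had 16 (0.579). The median over the 11 member windows was 17 CpG (ratio 0.693), against 13 CpG (0.567) over all 21263 promoter windows. In all 3 libraries a peak overlapped 8 of the 11 member windows (72.7%), against 59.5% of all windows. That share was 94.0% for the 10137 windows with a ratio of at least 0.6 and 28.0% for the 11126 windows below it. Over all windows an open start was thus common among CpG-rich promoters. The member windows did not follow that split. No CSMN peak overlapped the Gad1 window (0.849), the inner Lhx6 window (0.643) or the inner Prox1 window (0.568). Of the windows below 0.6, those of Adarb2, Gad2 and outer Lhx6 had a peak in all 3 libraries. The motif TAATTA, a core recognised by homeodomain proteins, was found in the Adarb2 window and in none of the other 10, against 4.53% of all windows. Both strands were searched. GGGCGG was in 9 of the 11 member windows, against 46.2% of all windows. CCAAT was in 7, against 38.2%, TATAAA in 3, against 12.6%, and CANNTG in 6, against 69.0%. Over all windows these shares varied with the CpG ratio. GGGCGG was in 74.1% of windows with a ratio of at least 0.6 and 20.7% of those below it, and CANNTG in 58.6% and 78.5%. The 11 member windows came from 8 genes, with 3 from Lhx6 and 2 from Prox1. These matches are descriptions of the letters in each window.

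All 10 interneuron genes had a peak within 1 kb of a gene start in each of the 3 libraries. The background was high: such a peak was present at 67.1% of protein-coding genes in CSMN 1, 69.3% in CPN 1 and 70.4% in CPN 2, and at 65.0% in all 3. The peaks at the interneuron genes were weak for gene starts. Strength is given as the authors' fold enrichment of a peak over its background, and, since the lists differ in length and scale, as the percentile of that fold among the 14225 genes with a start peak in every library. In CSMN 1, 7 of the 10 genes lay below the 25th percentile, as did 8 in CPN 1 and 8 in CPN 2. The median fold over the 10 genes was 4.20 in CSMN 1, 7.50 in CPN 1 and 6.12 in CPN 2, against 8.14, 13.7 and 13.8 over the 14225 genes in the same order of libraries.

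**Figure D1:**
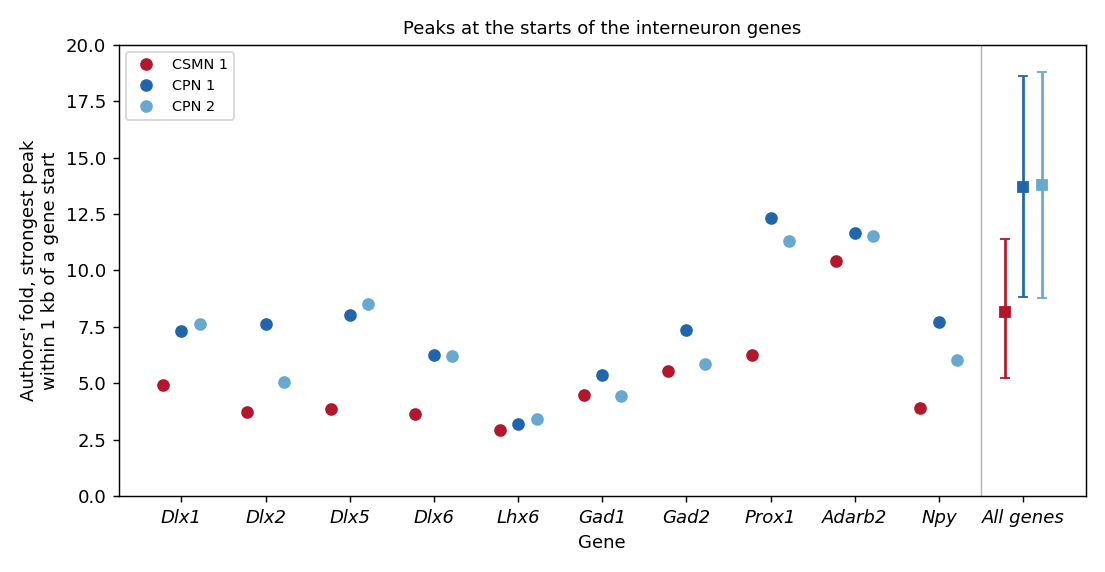
Fold enrichment of the strongest peak within 1 kb of a gene start at each interneuron gene, with CSMN 1 left of CPN 1 and CPN 2. Squares and bars give the median and quartiles of all 14225 genes with a start peak in the 3 libraries. Apart from Adarb2, Prox1 and, in CSMN 1, Gad2, each gene lies below the lower quartile.

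Adarb2 had the strongest start in CSMN 1 and CPN 2. Its fold was 10.4 in CSMN 1, 11.7 in CPN 1 and 11.5 in CPN 2, at percentiles 67.8, 39.0 and 37.9. It was the only member above the median in CSMN 1, and in both CPN libraries it was below it. Prox1 had the strongest start in CPN 1 and came next in the other two libraries, with 6.24 in CSMN 1, 12.3 in CPN 1 and 11.3 in CPN 2, at percentiles 33.7, 42.5 and 37.0. Prox1 and Adarb2 had similar CPN percentiles, and they were far apart in CSMN 1. Gad2 had 5.57 in CSMN 1, 7.37 in CPN 1 and 5.84 in CPN 2, at percentiles 27.8, 18.5 and 11.4. Gad1 had 4.50 in CSMN 1, 5.36 in CPN 1 and 4.42 in CPN 2, at percentiles 19.0, 9.56 and 5.62. For both GABA enzymes the CSMN percentile was above both CPN percentiles by more than the gap between CPN 1 and CPN 2. The same held for Adarb2, Lhx6 and Dlx1, and for some but not all of the projection neuron genes counted below. It was therefore not particular to the GABA enzymes, and its share over all genes was not counted. The neuropeptide gene Npy had 3.90 in CSMN 1, 7.71 in CPN 1 and 6.04 in CPN 2, at percentiles 14.2, 20 and 12.4, so its CSMN value fell between its CPN values.

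Among the homeobox genes, Dlx1 had start folds of 4.94 in CSMN 1, 7.30 in CPN 1 and 7.62 in CPN 2, at percentiles 22.3, 18.1 and 19.6. Dlx2 had 3.73 in CSMN 1, 7.62 in CPN 1 and 5.05 in CPN 2, at percentiles 12.7, 19.7 and 8.07. Dlx5 had 3.85 in CSMN 1, 8.04 in CPN 1 and 8.52 in CPN 2, at percentiles 13.9, 21.6 and 23.8. Dlx6 had 3.64 in CSMN 1, 6.25 in CPN 1 and 6.20 in CPN 2, at percentiles 11.9, 13.6 and 13.1. The 4 Dlx genes thus stayed below the 25th percentile in every library, and their order was not stable between CPN 1 and CPN 2. Lhx6 had the weakest start of the 10, with 2.92 in CSMN 1, 3.19 in CPN 1 and 3.42 in CPN 2, at percentiles 5.80, 1.70 and 2.10. For Dlx5 and Dlx6, either end of the gene was taken as a possible start.

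Read against the CpG content of the promoters, fold and CpG did not run in parallel among the members. Over all windows with a peak in the 3 libraries, those with a ratio of at least 0.6 had median folds of 9.11 in CSMN 1, 15 in CPN 1 and 15 in CPN 2. Those under 0.6 had 5.68 in CSMN 1, 8.64 in CPN 1 and 8.17 in CPN 2. Adarb2, with the fewest CpG, was above the CpG-rich median in CSMN 1, and Dlx2, with the most CpG, was below the CpG-poor median in the 3 libraries. At Gad1 the 300-base window had no CSMN peak, although its CpG ratio was 0.849. The CSMN peaks of Gad1 lay beside the window, as described below.

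The 8 joined stretches of the interneuron genes covered 1121 kb and held 84 peaks in CSMN 1, 84 in CPN 1 and 98 in CPN 2. That was 7.49 peaks per 100 kb in CSMN 1, 7.49 in CPN 1 and 8.74 in CPN 2, against 4.77, 6.81 and 8.13 around all protein-coding genes in the same order. Without Adarb2 it was 10.5 in CSMN 1, 12 in CPN 1 and 13.8 in CPN 2, lowest in CSMN 1 as around all genes. The equal density of CSMN 1 and CPN 1 thus depended on Adarb2. Gene by gene, regions per 100 kb were highest at the Dlx genes and lowest at Npy and Adarb2. Dlx6 had 31.4 regions per 100 kb, Dlx5 27.1, Dlx1 26.2, Dlx2 23.1, Lhx6 18.7, Prox1 16.2, Gad1 14.9, Gad2 10.6, Adarb2 7.26 and Npy 6.41. The median protein-coding gene had 10.5 (quartiles 4.63 and 16.8). Adarb2 is a long gene, and 352 genes of at least 400000 bp had a median of 6.77.

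**Figure D2:**
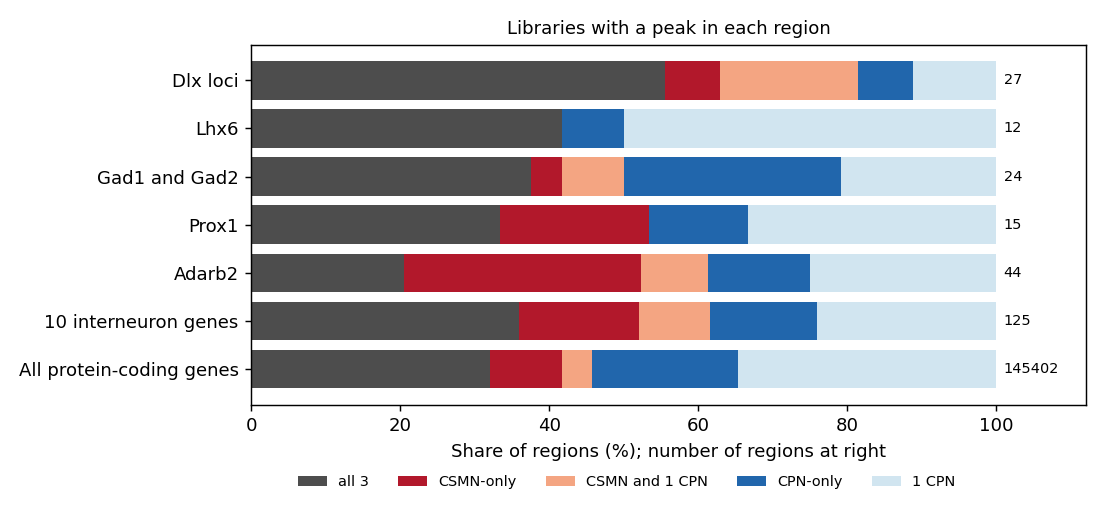
Share of regions (%) by the libraries with a peak in them, at interneuron genes or loci, the 10 genes together and all protein-coding genes. The number of regions is at the right. At Adarb2 31.8% of 44 regions had a CSMN peak alone, and at the other 9 genes together 7.41% of 81 did.

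Of the 125 regions, 45 had a peak in all 3 libraries (36.0%, Wilson 95% interval 28.1 to 44.7%), against 32.0% of regions around all protein-coding genes. A peak in CSMN 1 and in neither CPN library (CSMN-only) was found at 20 regions (16.0%, interval 10.6 to 23.4%), against 9.61%. A peak in both CPN libraries and not in CSMN 1 (CPN-only) was found at 18 regions (14.4%, interval 9.31 to 21.6%), against 19.6%. CSMN 1 and 1 CPN library shared 12 regions (9.60%), against 4.10%, and the other 30 regions (24%, interval 17.4 to 32.2%) came from 1 CPN library, against 34.6%. These intervals cover counting error only, and regions of a gene are not replicates. Adarb2 supplied 14 of the 20 CSMN-only regions. The other 9 genes had 6 of 81 (7.41%, interval 3.44 to 15.2%), which was near the background, and 12 CPN-only regions (14.8%). Their share with a peak in all 3 libraries was 44.4% (interval 34.1 to 55.3%). More CSMN-only than CPN-only regions were found at 3 of the 10 genes (Dlx5, Prox1 and Adarb2), against 19.0% of the 19365 protein-coding genes with a region. More CPN-only regions were found at 5 genes (Dlx1, Dlx2, Lhx6, Gad1 and Gad2), against 50.7%.

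CSMN-only peaks were short and weak at the members as elsewhere. Their median width was 186 bp and their median fold 2.34, against 175 bp and 2.34 around all genes. A −log10 q of at least 5 was reached by 2 of the 20 (10%), against 11.8% of CSMN-only regions around all genes. CPN-only regions reached that level at 15 of 18 in CPN 1 (83.3%) and 12 of 18 in CPN 2 (66.7%), against 72.5% and 70.3% around all genes. Regions of CSMN 1 and 1 CPN library reached it in CSMN 1 at 7 of 12 (58.3%), against 24.5% around all genes.

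The Dlx pairs were the most densely open of the loci. Their 27 regions had a peak in all 3 libraries at 15 (55.6%, interval 37.3 to 72.4%), and any CSMN peak at 22 (81.5%), against 45.8% of regions around all genes. At Dlx1 and Dlx2, 12 regions comprised 7 in all 3 libraries, 1 CSMN-only, 2 CPN-only, 1 of CSMN 1 with CPN 1, and 1 in a single CPN library. The widest of them, chr2:71528145-71530354 (2210 bp), spanned the start of Dlx1 and was the strongest of the locus in CSMN 1 and CPN 2. Its folds are those of the Dlx1 start above. The region at the Dlx2 start, chr2:71545764-71546994, was 1231 bp wide and was the strongest in CPN 1. The CSMN-only region, chr2:71527164-71527352, lay 2093 bp from the Dlx1 start and had a fold of 2.27 and a −log10 q of 3.05.

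Between the Dlx1 and Dlx2 gene bodies there were 4 regions, none of them CSMN-only. At chr2:71539020-71539329 all 3 libraries had a peak, with folds of 2.98 in CSMN 1, 2.88 in CPN 1 and 4.57 in CPN 2, and the summits fell on the same base. The percentile of this region among the 62435 regions shared by the 3 libraries was 33.6 in CSMN 1, 5.37 in CPN 1 and 28.8 in CPN 2, so the CPN libraries differed from each other more than CSMN 1 did from CPN 2. At chr2:71539555-71539972 the fold was 2.23 in CSMN 1 and 2.41 in CPN 1, with no CPN 2 peak. The pair of CPN-only regions, chr2:71535062-71535320 and chr2:71541304-71541618, had no CSMN peak. The one nearer Dlx1 had folds of 2.99 in CPN 1 and 2.81 in CPN 2, and the one nearer Dlx2 had 2.50 in CPN 1 and 3.08 in CPN 2.

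At Dlx5 and Dlx6, 15 regions comprised 8 in all 3 libraries, 1 CSMN-only, 4 of CSMN 1 with 1 CPN library and 2 in a single CPN library, with no CPN-only region. The strongest was not at a gene end: chr6:6884892-6885381, 2824 bp to the right of Dlx5, had folds of 6.31 in CSMN 1, 8.13 in CPN 1 and 8.98 in CPN 2. Its percentile among shared regions was 78.4 in CSMN 1, 64.6 in CPN 1 and 68.3 in CPN 2, higher in CSMN 1 by more than the gap between the CPN libraries. The right end of Dlx5 lay in chr6:6881503-6882230, whose folds are the Dlx5 values above, and chr6:6878514-6879138, 713 bp from the left end, was weaker (2.63 in CSMN 1, 2.07 in CPN 1 and 2.78 in CPN 2). Dlx6 had chr6:6863448-6864898, 114 bp inside its left end, with 3.64 in CSMN 1, 4.86 in CPN 1 and 4.63 in CPN 2. It also had chr6:6862626-6863026, 308 bp outside that end, with 3.09 in CSMN 1, 6.25 in CPN 1 and 6.20 in CPN 2. The stronger of these neighbours was the inner one in CSMN 1 and the outer one in both CPN libraries. Near the other end of Dlx6, chr6:6867140-6867354 had 2 in CSMN 1 and 2.14 in CPN 2. The CSMN-only region at Dlx5, chr6:6890864-6891047, had a fold of 2.26 and a −log10 q of 2.35.

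The DNA between Dlx6 and Dlx5 held 3 regions, each with a CSMN peak. Folds at chr6:6873961-6874684 were 2.82 in CSMN 1, 3.43 in CPN 1 and 3.06 in CPN 2. At chr6:6870476-6870713 they were 2.36 in CSMN 1, 3.77 in CPN 1 and 2.94 in CPN 2. The remaining one, chr6:6870094-6870331, had 2.32 in CSMN 1 and 2.49 in CPN 2. These intergenic peaks were weaker than the strongest gene-end peak of either gene in every library that had them.

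**Figure D3:**
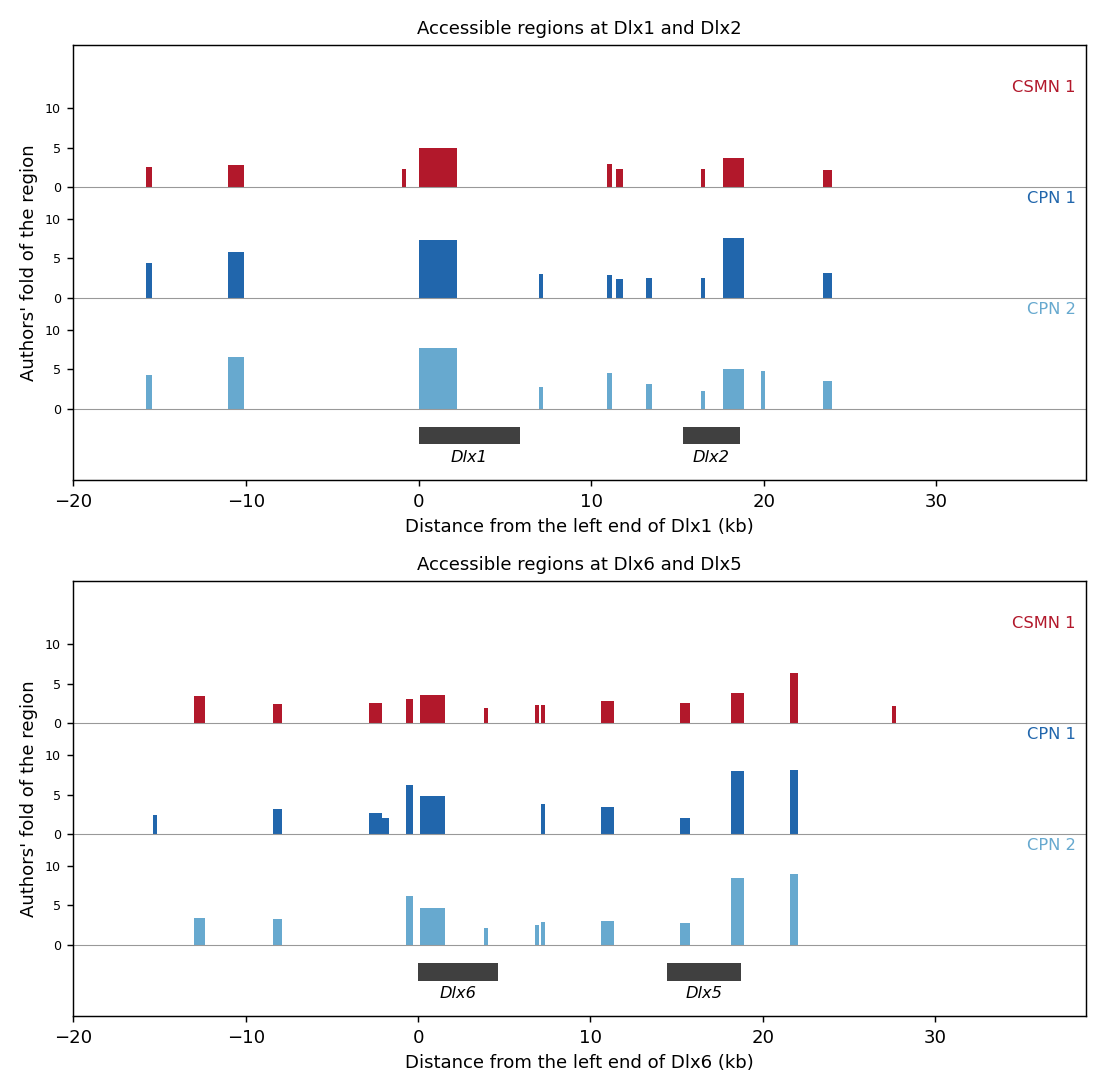
Regions at the Dlx1 and Dlx2 pair and at the Dlx5 and Dlx6 pair by distance in kb, with the fold in CSMN 1 above those in CPN 1 and CPN 2; bars span the merged region. The tallest bar lies at the Dlx1 start in CSMN 1 and CPN 2 and at the Dlx2 start in CPN 1, and in all 3 libraries 2824 bp to the right of Dlx5.

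Lhx6 had 12 regions, with 5 in all 3 libraries, 1 CPN-only and 6 in a single CPN library, and none that was CSMN-only. Of its 3 annotated starts, the outer one lay in chr2:36104583-36105856, the region with the folds given above. In CSMN 1 the 2.92 belonged to a peak over the promoter window of the middle start, and the outer window had 2.54. The inner start region, chr2:36103420-36104054, had 2.36 in CSMN 1, 2.78 in CPN 1 and 3.06 in CPN 2. The strongest region in CSMN 1 and CPN 2 was inside the gene, chr2:36090931-36091696, with folds of 3.93 in CSMN 1, 3.69 in CPN 1 and 5.10 in CPN 2. Its percentile was 56.1 in CSMN 1, 17 in CPN 1 and 35.3 in CPN 2, with both CPN libraries lower. In CPN 1 the strongest was chr2:36077328-36077693, 4257 bp downstream, with 3.18 in CSMN 1, 5.70 in CPN 1 and 4.94 in CPN 2. The CPN-only region, chr2:36069121-36069599, had 2.63 in CPN 1 and 2.46 in CPN 2.

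The GABA enzyme genes had 12 regions each. Outside Adarb2 they had the largest numbers of CPN-only regions, 4 at Gad1 and 3 at Gad2. Gad1 had 1 CSMN-only region and Gad2 had none. Together 7 of their 24 regions were CPN-only (29.2%, interval 14.9 to 49.2%), against 19.6% around all genes. CSMN-only minus CPN-only regions was −3 at each gene in the full lists and 0 at each with lists of equal length. At Gad1 the region over the annotated start, chr2:70562008-70562465, was weak, with 2.16 in CSMN 1, 2.26 in CPN 1 and 2.18 in CPN 2. Stronger peaks lay upstream of it. The region chr2:70560990-70561664, 465 bp from the start, had 4.50 in CSMN 1, 5.36 in CPN 1 and 4.42 in CPN 2, and chr2:70558150-70558416, 3713 bp from it, had 4.44 in CSMN 1, 7.16 in CPN 1 and 6.35 in CPN 2. The nearer one was the strongest Gad1 region in CSMN 1, and the farther one was the strongest in both CPN libraries. The CPN-only region chr2:70620344-70620502 lay 18330 bp past the gene and had 4.28 in CPN 1 and 4.97 in CPN 2. Another inside the gene, chr2:70595989-70596264, had 4.54 in CPN 1 and 3.78 in CPN 2, so each was the stronger in 1 of the CPN libraries. The CSMN-only region, chr2:70563072-70563209, had a fold of 1.92 and a −log10 q of 1.98.

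At Gad2 the strongest region in every library was the start, chr2:22621675-22622864. A weaker peak nearby, chr2:22623036-22623246, was in CPN 1 alone with a fold of 2.12. The strongest CPN-only region, chr2:22620048-22620240, lay 2087 bp from the start and had 3.03 in CPN 1 and 3.45 in CPN 2. CSMN 1 and CPN 2 shared 2 further regions. One was chr2:22618049-22618286, with 3.33 in CSMN 1 and 3.15 in CPN 2, and the other chr2:22627983-22628366, with 3.41 in CSMN 1 and 2.47 in CPN 2. In these the CSMN peaks were not weak, with a −log10 q of 12.9 and 9.53.

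Prox1, a homeobox factor kept on in interneurons of caudal origin, had 15 regions, with 5 in all 3 libraries, 3 CSMN-only, 2 CPN-only and 5 in a single CPN library. The upstream start, chr1:190170162-190170836, was the strongest region in every library, and the inner start, chr1:190168759-190169510, had 2.75 in CSMN 1, 4.01 in CPN 1 and 3.97 in CPN 2. The 3 CSMN-only regions had folds from 2.24 to 2.26, among them chr1:190135642-190135847 inside the gene, with 2.26 and a −log10 q of 2.35. CPN-only chr1:190181722-190182208, 10895 bp upstream, had 4.74 in CPN 1 and 3.94 in CPN 2. The balance of 3 to 2 was not stable: the difference between CSMN-only and CPN-only regions was −2 without CPN 1, −1 without CPN 2 and −3 among peaks with a −log10 q of at least 5. Npy had 3 regions. These were the start, chr6:49822024-49823170, another region 857 bp from it, chr6:49823567-49823798, with 2.52 in CSMN 1, 3.05 in CPN 1 and 2.64 in CPN 2, and chr6:49804215-49804422, with 2.17 in CSMN 1 and 2.31 in CPN 1.

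Adarb2, which encodes a brain protein of the RNA-editing deaminase family, had 44 regions, with 9 in all 3 libraries, 14 CSMN-only (31.8%, interval 20 to 46.6%), 6 CPN-only, 4 of CSMN 1 with 1 CPN library and 11 in a single CPN library. It had 30 peaks in CSMN 1, 22 in CPN 1 and 27 in CPN 2. Dlx5, with 11 in CSMN 1, 10 in CPN 1 and 10 in CPN 2, was the other member with most peaks in CSMN 1. Of the 14 CSMN-only regions 13 lay inside the gene, spread from 62558 to 510750 bp from its start. They were weak: 2 of 14 reached a −log10 q of 5, chr13:8334672-8334928 with a fold of 3.94 (−log10 q 13.0) and chr13:8511513-8511791 with 3.47 (9.10). Several of the others had identical folds, such as 2.69, 2.34 or 2.17. The strongest CPN-only region, chr13:8597695-8598085, had 8.03 in CPN 1 and 7.16 in CPN 2, stronger in its lists than any CSMN-only region was in CSMN 1. Apart from the start region, chr13:8202482-8203832, the strongest region was chr13:8784429-8785653, 15667 bp downstream, with 8.99 in CSMN 1, 9.34 in CPN 1 and 10.9 in CPN 2.

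Long genes offered a background for that count, chosen after the values were seen. In windows of the 352 genes of at least 400000 bp, 11.9% of regions were CSMN-only, and the median gene had 10.6%. The Adarb2 share was reached by 38 of the 352 (10.8%), and by 59 of the 2156 genes with at least 20 regions (2.74%). More CSMN-only than CPN-only regions were found at 110 of the 352 (31.2%). With only peaks of a −log10 q of at least 5 kept and classed anew, Adarb2 had 26 regions, 5 CSMN-only and 5 CPN-only. Among these CSMN-only regions were the 2 strong ones named above, and the others had a weaker CPN peak in the full lists. For example, chr13:8487632-8487933 had a −log10 q of 5.36 in CSMN 1 and 4.11 in CPN 2. Likewise, chr13:8538283-8538895 became CPN-only because its CSMN peak, with a −log10 q of 4.86, was dropped. Without CPN 1 the counts were 17 CSMN-only and 13 CPN-only, and without CPN 2 they were 16 CSMN-only and 10 CPN-only. Both classes then depend on only 1 CPN list, which raises both counts by construction. With lists of equal length there were 17 CSMN-only and 4 CPN-only regions. CSMN-only minus CPN-only regions at Adarb2 was thus 8 in the full lists, 0 among strong peaks, 4 without CPN 1, 6 without CPN 2, 13 with lists of equal length and 14 with a reciprocal overlap of 50%. The reciprocal overlap was not run over all genes.

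**Figure D4:**
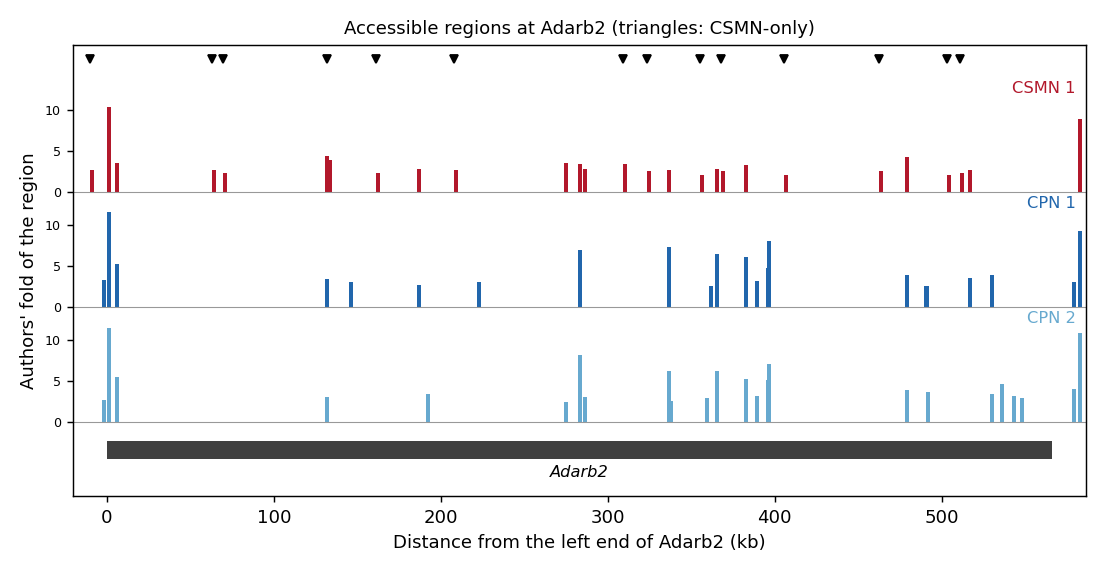
Regions along Adarb2 by distance from its start in kb, with the fold in CSMN 1 above those in CPN 1 and CPN 2; triangles mark the 14 CSMN-only regions. The CSMN-only regions have folds of 2.08 to 3.94 and are spread along the gene.

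For the 45 member regions with a peak in all 3 libraries, folds were compared as percentiles among the 62435 regions that the 3 libraries shared. The median percentile was 39.2 in CSMN 1, 39.8 in CPN 1 and 33.3 in CPN 2, against 52.6, 52.8 and 53.0 for shared regions around all genes. Below the 50th percentile lay 62.2% of them in CSMN 1, 71.1% in CPN 1 and 80% in CPN 2, against 47.5%, 47.2% and 47.0%. The CSMN percentile minus the mean CPN percentile had a median of 4.13 points and ranged from −28.8 to 53.3, with 31 regions above 0 and 14 below. For the shared regions around all genes the median was 0.207 points and the range −83.9 to 75.7. Of those, 23783 were above 0 and 22814 below. In absolute size the difference at the member regions had a median of 12 points, against 8.41 for shared regions around all genes. CPN 1 and CPN 2 differed by a median of 5.23 points in absolute size and by up to 26.0, against a median of 4.75 around all genes. Without CPN 1 the median difference was 7.97 points and without CPN 2 it was 4.43. The summits of CSMN 1 lay a median of 61 bp from those of CPN 1 and 62 bp from those of CPN 2, and the CPN summits 37 bp from each other. Around all genes these gaps were 34, 37 and 22 bp.

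A region was set apart where the CSMN percentile was more than 20 points above, or below, both CPN percentiles. Of the 45, 5 were higher in CSMN 1 (11.1%), against 6.39% of shared regions around all genes, and 1 was lower, against 7.71%. Without CPN 1, 11 were higher and 6 lower, and without CPN 2, 8 were higher and 3 lower, since a single CPN percentile then had to be passed. The largest gap was at chr13:8333356-8334206 in Adarb2, with folds of 4.45 in CSMN 1, 3.47 in CPN 1 and 3.07 in CPN 2, at percentiles 63.5, 14.0 and 6.38. It lay next to the strongest CSMN-only region of that gene. Also in Adarb2, chr13:8680572-8681196 had 4.34 in CSMN 1, 3.93 in CPN 1 and 3.94 in CPN 2, at percentiles 62.0, 20.9 and 19.4. The others were the Gad1 region 465 bp from the start (percentile 63.8 in CSMN 1, 40.1 in CPN 1 and 26.7 in CPN 2) and a pair in Lhx6. Of that pair, chr2:36090931-36091696 is described above, and chr2:36102450-36102980 had 3.22 in CSMN 1, 3.83 in CPN 1 and 4.02 in CPN 2, at percentiles 41.1, 19.7 and 20.5. The lower one, chr13:8538283-8538895 in Adarb2, had 2.76 in CSMN 1, 7.37 in CPN 1 and 6.27 in CPN 2, at percentiles 24.8, 59.2 and 48.1. No region of the Dlx loci was set apart in either direction.

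**Figure D5:**
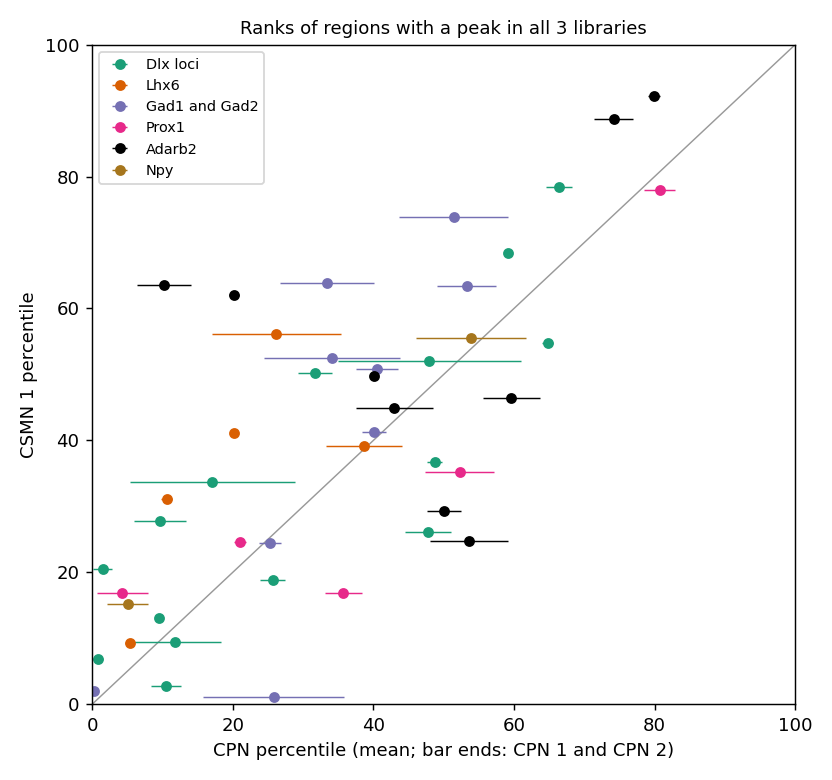
Percentile of fold in CSMN 1 (vertical) against the mean percentile of the CPN libraries (horizontal, with bar ends at CPN 1 and CPN 2) for the 45 member regions shared by all 3 libraries. The points farthest above the diagonal lie in Adarb2, Gad1 and Lhx6, and the 1 region more than 20 points below both CPN libraries lies in Adarb2.

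Other interneuron genes gave a wider view of the lineage. Of 34 such genes, 28 had a start peak in CSMN 1, 29 in CPN 1 and 32 in CPN 2, and 27 in all 3. Their median start percentiles were 23.1 in CSMN 1, 20.8 in CPN 1 and 17 in CPN 2, against 16.6, 19.1 and 12.7 for the 10 members. Of their 462 regions 39.8% were in all 3 libraries, 7.58% were CSMN-only and 19.9% CPN-only. Among the densest were the nuclear receptor gene Nr2f1 with 40.1 regions per 100 kb and the chemokine receptor gene Ackr3 with 32.9. The sparsest were the calbindin gene Calb1 with 6.11, the neurogliaform cell marker Ndnf with 4.96 and the neuregulin receptor gene Erbb4 with 2.33.

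Genes of the sorted neurons themselves also had start peaks whose median lay below that of all genes. Of 18 projection neuron genes, 16 had a start peak in CSMN 1, 17 in CPN 1 and 18 in CPN 2, at median percentiles of 22.1, 18.0 and 18.3. Among the densest were the transcription factor genes Neurod2 with 36.2 regions per 100 kb and Lhx2 with 34.1. The start of Slc17a7, the vesicular glutamate transporter of cortical projection neurons, had a peak in CPN 2 alone. Start peaks in all 3 libraries were found at 7 of 10 astrocyte genes and 5 of 10 oligodendrocyte lineage genes. They were also found at 4 of 10 microglia genes and 5 of 18 genes of non-neural lineages. Over all protein-coding genes the share was 65.0%. Gfap and Aqp4 of astrocytes and Aif1 of microglia had no start peak in any library, whereas other genes of both lists had one in all 3, as counted above. Whether cells other than the labelled neurons contributed to the peaks at the interneuron genes was not tested.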

How the data were processed

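Peak lists of 1 CSMN and 2 CPN ATAC-seq libraries were used, grouped by sample title. Per the submitters' processing notes, the tools were BWA 0.7.17, MACS2 2.2.7.1 and bedtools 2.29.2 and the build was mm10. No read filter, transposase shift, caller setting or read total was given in the sources used here. Sequencing depth was therefore unknown. Each deposited peak carries the authors' fold enrichment at its summit, a −log10 p and −log10 q, a score and the offset of the summit. The deposited score equalled 10 times the −log10 q, cut to a whole number, for 99.9 to 100% of peaks per list. Peak names in each list carry a single library, so peaks were taken as called per library.

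The lists held 98067 peaks in CSMN 1, 134018 in CPN 1 and 158779 in CPN 2, covering 39.7, 54.7 and 47.2 Mb. Peaks were merged at an overlap of at least 1 bp and classed by library with Python 3.11.15, pandas 2.3.3, NumPy 2.4.6 and SciPy 1.17.1. A check with bedtools 2.31.1 found 0 differences over 204313 regions, and the code was tested on simulated data. Windows were gene bodies of a RefSeq table (GRCm38.p6) plus 20 kb each side, with overlapping windows joined. Gene starts came from RefSeq promoters for 17492 genes, and either gene end stood in for the other 4395, as no strand was given. Folds were ranked only over features with a peak in all 3 libraries. Shares carry Wilson 95% intervals. No p-value was computed, since CSMN had 1 library. The members, the gene lists and the comparisons were chosen with earlier results of these data known. All 10 members are named, with their strongest, gene-start, intergenic and highest cell-type-specific regions and the regions that differed in rank. Of the lists, genes with the most or fewest regions per 100 kb are named, except some that are not reported here, as well as Slc17a7, Gfap, Aqp4 and Aif1, which were picked after their values were seen. Alternatives covered the window, peak threshold, list length, overlap, distance to a start, each CPN library and each member.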

Additional observations from a re-analysis of the deposited data

How the results depend on the processing

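All 10 genes kept a start peak in every library at distances of 500 bp and 2 kb, with peaks of a −log10 q of at least 5 alone, and with lists cut to 98067 peaks. Flanks of 0, 5, 10 and 50 kb gave CSMN-only shares of 16 to 19% and CPN-only shares of 9.52 to 19%, with a rank median of 4.3 to 5.92 points. Peaks with a −log10 q of at least 5 were also classed alone, so that a weaker peak in another library no longer counted. The CSMN-only share at the interneuron genes was then 7.50% and the CPN-only share 25% (2.82% and 28.9% around all genes). There were 3.84 such peaks per 100 kb in CSMN 1, 5.8 in CPN 1 and 5.8 in CPN 2. With lists of equal length the CSMN-only share was 27.9%, against 19.1% around all genes, and CPN 2 had 5.71 peaks per 100 kb. A reciprocal overlap of 50% gave 25.3% CSMN-only and 14.9% in all 3 libraries. It split the 125 regions into 174 and was run only around the members, so no share over all genes stands beside it. Without Adarb2 the CSMN-only share was 7.41%, and no other member moved it so when left out. Leaving out either CPN library gave 22.0 to 24.8% CSMN-only, 29.4 to 30.5% CPN-only, 45.9 to 47.5% in every remaining library, and a rank median of 4.43 to 7.97 points. Around all genes these shares were 13.3 to 15.2%, 41.8 to 48.2% and 38.5 to 43%. A region must then match or lack a peak in only 1 CPN list, which raises each of these shares by construction. With both CPN libraries the CSMN-only share around all genes was 9.61%.

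The sign of CSMN-only minus CPN-only regions turned at 5 genes. For Prox1 it was −4 at 50 kb, −3 among strong peaks, −2 without CPN 1 and −1 without CPN 2. Among strong peaks Dlx5 had −1. With lists of equal length Dlx1 and Dlx2 had 1 each. With reciprocal overlap Dlx1 had 2, Dlx2 had 1 and Lhx6 had 1. The cause was not tested.

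No paired analysis was possible because CSMN and CPN share only replicate number 1. Depth was unknown, and for CSMN 1, the shortest list, closed chromatin and a peak below the threshold cannot be told apart. CSMN 1 has no replicate, and its differences have no CSMN spread beside them.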

Other observations

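Antisense and long non-coding genes lay over several of the regions, and ATAC-seq carries no strand, so an open region cannot be given to one gene of an overlapping pair. Dlx6os1, a long non-coding RNA gene that runs across Dlx6, overlapped 10 regions, of which 4 were in all 3 libraries, 4 in CSMN 1 and 1 CPN library and 2 in a single CPN library. Both of its annotated starts had a region within 1 kb. Dlx6os2 overlapped 1 region, which was in all 3 libraries. Gad1os overlapped 4 regions, 3 of them in all 3 libraries and 1 CSMN-only, and its annotated start had a region within 1 kb. Prox1os overlapped 5 regions, with 3 in all 3 libraries, 1 CSMN-only and 1 CPN-only. Dlx1as overlapped 1 region, the CPN-only region nearest to Dlx1.

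Protein-coding neighbours also reached into the windows. Morn5, beside Lhx6, overlapped 4 of the counted regions, Metap1d, beside Dlx1, overlapped 2, Myo3a, beside Gad2, overlapped 1 and Rbm18, beside Lhx6, overlapped 0. None of the starts of these 4 genes had one of the counted regions within 1 kb.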
